A study of Mus musculus with 5 samples.

Results

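The 10 genes described here are Trem2 and its adaptor Tyrobp, with 8 genes that mark disease-associated microglia: Axl, Clec7a, Lilrb4a, Itgax, Spp1, Cst7, Gpnmb and Cd9. They were taken by gene symbol from a table of 45777 mouse genes (build mm10), and each of the 10 symbols had 1 row. TREM2 is a surface receptor of microglia and other myeloid cells that binds lipids, lipoproteins and debris. It has no signalling tail of its own and depends on the adaptor TYROBP (DAP12), whose tyrosine motif recruits the kinase SYK. Disease-associated microglia, first defined in mouse models of Alzheimer's disease, lose homeostatic transcripts and gain genes of phagocytosis, lipid handling and lysosomes. Their early genes, Tyrobp among them, appear without TREM2, and their later genes, including Axl, Cst7, Itgax, Clec7a, Cd9 and Lilrb4a, need it.

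The cells were MG5, a mouse microglial line kept in medium conditioned in part by A1 astrocyte-like cells. 1 library came from cells given 10 µM 6OHA for 6 h (replicate 2), 3 libraries came from cells given 10 µM bexarotene (BEX) for 6 h (replicates 1 to 3), and 1 library came from untreated cells (replicate 3), for which the labels name no vehicle. BEX is an approved agonist of RXR, the retinoid X receptor, which binds DNA as the partner of LXR, PPAR and other nuclear receptors. The label 6OHA stands for a newer RXR agonist, and the study set its activity beside that of BEX. By the study's own text each group had 3 samples; those beyond these 5 libraries were not analysed here. MG5 is a single cell line in culture, so the levels are those of that line and not of microglia in tissue.

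The libraries held 33823181 to 40545305 counts, with 18273 to 18550 genes above 0, and the 10 genes took 1.46% of the counts with 6OHA, 1.47% to 1.51% with BEX and 1.69% in untreated cells. Spp1 and Gpnmb held most of these counts (260015 and 240877 in untreated cells), so this share mainly follows those genes. Only BEX had replicates, so its spread was taken to hold for the single 6OHA and untreated libraries too. The labels do not say that replicates came from separate cultures, and p-values therefore measure the spread between these samples alone, which may be technical. Levels are in CPM (TMM-scaled, so comparable between libraries but not between genes of different length), and log2 fold changes, with their standard errors (SE), came from 1 edgeR quasi-likelihood fit of all 5 libraries. A gene was called when its Benjamini-Hochberg adjusted p over 15462 tested genes was under 0.05, and "rose" and "fell" are used of called genes. In bulk RNA, fewer cells of a kind and less RNA per cell cannot be told apart. The 10 markers of microglial and macrophage identity, Tyrobp among them, were each above 10 CPM. They summed to 8008 CPM with 6OHA, 7904 to 7983 CPM with BEX and 8077 CPM in untreated cells. Single markers did move: Itgam and Irf8 rose and Cd68 and Spi1 fell with BEX, and Spi1 fell with 6OHA. Outside the 10 genes, the cholesterol exporter Abca1, a known target of LXR, rose with both agonists, at 1424 CPM with 6OHA, 793 ± 24.1 CPM with BEX (SD, n = 3) and 399.6 CPM in untreated cells. Abcg1, another exporter, had 442 CPM with 6OHA, 204 ± 5.99 CPM with BEX (SD, n = 3) and 224 CPM in untreated cells and rose with 6OHA.

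RefSeq promoter windows on GRCm38.p6, 250 bases before to 50 after the annotated start, were held for 8 of the 10 genes (not for Tyrobp or Lilrb4a). They were searched on both strands for the nuclear receptor core AGGTCA, which reads TGACCT on the other strand, for the core GAGGAAG, which reads CTTCCTC there and is bound by the myeloid factor PU.1 that Spi1 encodes, and for the E-box CACGTG. No pair of these motifs overlaps in the windows. The 3 windows below are shown because they are those of the members in which a motif was found, with motifs in capitals, 5′ to 3′ on the strand of the gene. They lie at chr17:48346151-48346450 (+ strand), chr7:25788684-25788983 (- strand) and chr5:104434861-104435160 (+ strand).
Trem2: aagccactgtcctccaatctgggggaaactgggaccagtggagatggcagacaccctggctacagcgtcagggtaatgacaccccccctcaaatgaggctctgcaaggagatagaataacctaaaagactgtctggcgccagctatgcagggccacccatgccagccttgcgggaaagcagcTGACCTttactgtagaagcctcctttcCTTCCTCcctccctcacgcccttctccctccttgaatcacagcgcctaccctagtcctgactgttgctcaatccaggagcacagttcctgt
Axl: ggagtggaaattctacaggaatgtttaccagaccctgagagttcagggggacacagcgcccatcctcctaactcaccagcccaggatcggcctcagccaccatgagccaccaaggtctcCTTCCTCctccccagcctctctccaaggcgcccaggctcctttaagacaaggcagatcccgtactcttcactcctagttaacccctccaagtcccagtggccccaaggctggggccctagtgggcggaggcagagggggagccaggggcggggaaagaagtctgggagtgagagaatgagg
Spp1: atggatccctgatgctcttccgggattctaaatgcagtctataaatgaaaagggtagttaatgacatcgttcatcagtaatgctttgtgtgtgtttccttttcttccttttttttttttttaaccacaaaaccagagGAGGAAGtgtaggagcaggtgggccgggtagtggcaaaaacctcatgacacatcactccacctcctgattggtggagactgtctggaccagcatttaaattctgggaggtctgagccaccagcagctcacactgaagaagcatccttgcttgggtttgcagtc
The Trem2 window holds TGACCT beginning at base -68 from the start and CTTCCTC beginning at base -41. The Axl window is placed on the RefSeq start at base 25788733, which lies inside the outermost end of the gene at base 25788924; counted from that start, CTTCCTC begins at base -131, and in the Spp1 window GAGGAAG begins at base -113. Over all 32851 windows of this length, 16.26% hold the nuclear receptor core, 13.63% the PU.1 core and 7.15% the E-box, so each match is common. A match is a description of these letters and not a binding site.

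In untreated cells the 10 genes covered a wide range of levels per length. Spp1 stood at 10631 TPM (transcript abundance scaled for length, as deposited), the 5th highest of all genes in the table, and Gpnmb at 3695 TPM was 21st. Tyrobp (1509.95 TPM) and Lilrb4a (1506 TPM) were next and nearly equal, and Trem2 followed at 653 TPM, 204th. Cd9 stood at 487 TPM, Axl at 123 TPM, Itgax at 94.5 TPM and Cst7 at 81.8 TPM. Clec7a was far below the rest at 12.03 TPM, 8080th. The line therefore expressed, before any agonist, the receptor, its adaptor and most of the state genes at high levels. The order was the same with 6OHA, with Spp1 at 8848 TPM, Tyrobp at 1393 TPM against Lilrb4a at 1339.86 TPM, Trem2 at 558 TPM and Clec7a at 8.13 TPM. With BEX, Tyrobp (1421 to 1469 TPM) and Lilrb4a (1070.5 to 1125 TPM) stood apart, whereas the ranges of Itgax (86.3 to 94.3 TPM) and Cst7 (80.8 to 87.5 TPM) overlapped.

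**Figure D1:**
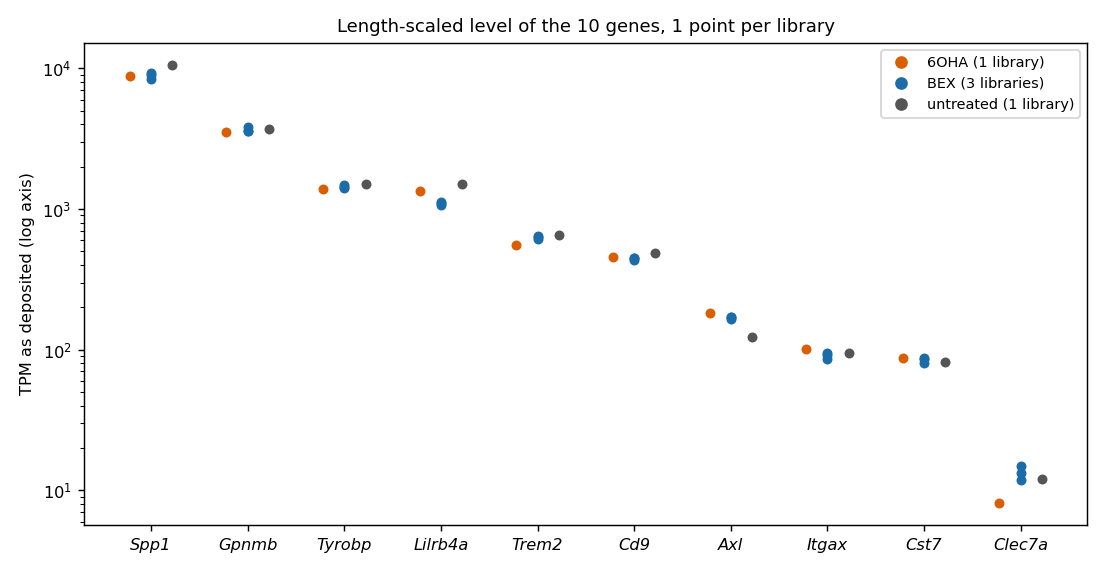
TPM as deposited (log axis) for the 10 genes, ordered by the untreated level, with 1 point per library: 6OHA (1), BEX (3) and untreated (1), from left to right within each gene. The genes span 8.13 TPM (Clec7a, 6OHA) to 10631 TPM (Spp1, untreated).

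Against untreated cells, 5 of the 10 genes were called with 6OHA: Axl rose, and Trem2, Lilrb4a, Spp1 and Clec7a fell. Over all 15462 tested genes the share called in that comparison was 14.8% (7.59% higher and 7.19% lower), and it was 22.7% of the 9169 genes that, like all 10 members, averaged at least 10 CPM. The 5 became 8 without BEX replicate 2 (Tyrobp, Gpnmb and Cd9 were added, all lower), 2 without a filter on low counts and 1 on the deposited TPM. With BEX, 4 of the 10 were called: Axl rose, and Lilrb4a, Spp1 and Cd9 fell. The share over all genes was 13.6% (7.55% higher and 6.03% lower), and 20.1% among genes of at least 10 CPM. Between 6OHA and BEX, at equal dose and time, 3 of the 10 were called: Lilrb4a was higher with 6OHA, and Trem2 and Clec7a were lower. The 3 became 1 without a filter and 0 on the TPM (limma, 4 at an unadjusted p under 0.05), and the 4 of the BEX comparison became 2 on the TPM. For 6OHA over BEX in the edgeR fit, the share over all genes was 6.53% (2.4% higher and 4.13% lower), and 10.1% among genes of at least 10 CPM. The median log2 fold change of the 10 was -0.16 for 6OHA over untreated, -0.09 for BEX over untreated and 0.0024 for 6OHA over BEX, while the medians of all tested genes were -0.0031, -0.0014 and -0.004 in the same order. All 10 genes passed the filter on low counts. The 2 comparisons with untreated cells share the same single untreated library, so a deviation of that library would move both.

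**Figure D2:**
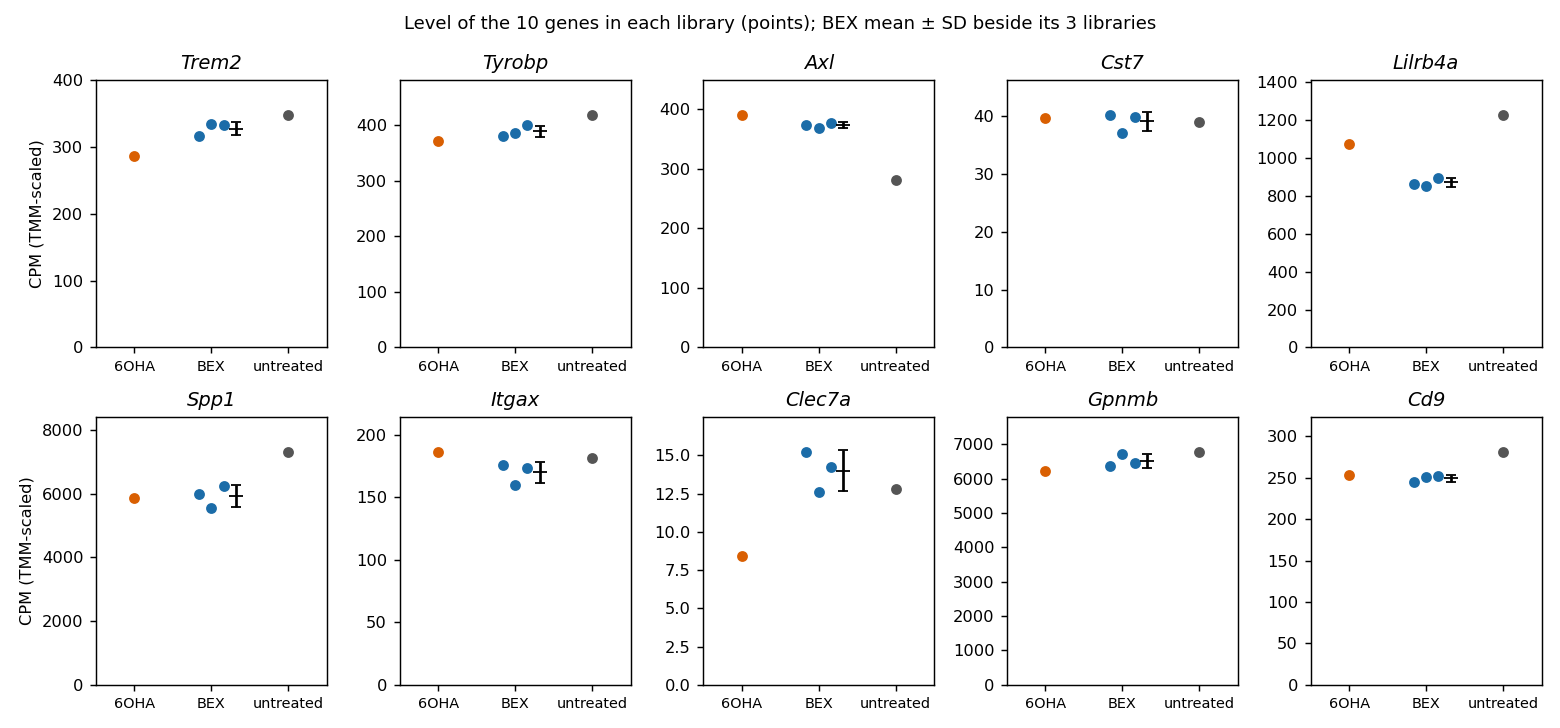
CPM (linear axis from 0) of each of the 10 genes in the 6OHA library, the 3 BEX libraries and the untreated library, 1 point per library, with the BEX mean ± SD as a black bar. Axl lies higher in all 4 agonist libraries than in the untreated one, Trem2, Tyrobp, Lilrb4a, Spp1, Gpnmb and Cd9 lie lower in all 4, and Trem2, Tyrobp, Clec7a and Gpnmb are lowest with 6OHA. The share of all genes with such an order was not computed, and Tyrobp and Gpnmb were called in no comparison.

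Trem2 (chromosome 17, 48346401 to 48352276, + strand of GRCm38.p6, protein-coding) had 287 CPM with 6OHA, 317, 334 and 332 CPM with BEX (327 ± 9.5 SD, n = 3) and 348 CPM in untreated cells. The 6OHA library was below all BEX libraries, and all 4 agonist libraries were below the untreated one. With 6OHA, Trem2 fell to 0.823 of its untreated level (log2 fold change -0.28 ± 0.057, edgeR adjusted p = 0.00585). With BEX the log2 fold change was -0.09 ± 0.046, which did not pass (edgeR adjusted p = 0.241; 95% interval -0.19 to 0.01). The difference between the agonists was itself called: Trem2 was lower with 6OHA than with BEX, by -0.19 ± 0.047 on the log2 scale (edgeR adjusted p = 0.0298). Both calls on Trem2 were lost with limma on the deposited TPM (adjusted p = 0.0703 and 0.0752 over untreated, 0.123 and 0.133 over BEX), and the call over BEX was also lost without a filter on low counts (edgeR adjusted p = 0.11).

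Tyrobp (chromosome 7, 30413782 to 30417582, + strand), the adaptor, followed the same order of groups over a smaller range. It had 372 CPM with 6OHA, 381, 385 and 400.2 CPM with BEX (389 ± 10.1 SD, n = 3) and 419 CPM in untreated cells. The 6OHA library was again the lowest and the untreated library the highest of the 5. Tyrobp did not pass the threshold in any comparison: the log2 fold change was -0.17 ± 0.054 for 6OHA over untreated (edgeR adjusted p = 0.051), -0.11 ± 0.044 for BEX over untreated (edgeR adjusted p = 0.134) and -0.06 ± 0.044 for 6OHA over BEX (edgeR adjusted p = 0.463). The value for 6OHA over untreated lay at the threshold: it was called in 4 of 12 alternatives, among them DESeq2 (adjusted p = 0.0493), and stood at -0.05 (edgeR adjusted p = 0.695) after offsets for GC content and gene length. Those offsets turned the sign of the BEX value, to 0.02 (edgeR adjusted p = 0.865).

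Per transcript length, Tyrobp was 2.5 times as abundant as Trem2 with 6OHA, 2.31, 2.22 and 2.31 times with BEX and 2.31 times in untreated cells. The ratio was highest in the 6OHA library, and the untreated value lay within the BEX range. Hcst (DAP10), the other adaptor that TREM2 can use, was low, at 1.74 CPM with 6OHA, 2.11 ± 0.116 CPM with BEX (SD, n = 3) and 2.11 CPM in untreated cells, and it was not called.

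A list of 18 genes of TREM2 partners and signalling was also followed, not all of them downstream of the receptor. With 6OHA, 4 rose, 1 fell and 13 were not called, and with BEX 5 rose, 7 fell and 6 were not called. The share called was thus 27.8% with 6OHA and 66.7% with BEX, beside 22.7% and 20.1% among all tested genes of at least 10 CPM. Syk, the kinase recruited by TYROBP, had 296 CPM with 6OHA, 248 ± 2.01 CPM with BEX (SD, n = 3) and 174 CPM in untreated cells. It rose in both comparisons (log2 fold change 0.77 ± 0.055, edgeR adjusted p = 2.04e-06, and 0.51 ± 0.046, edgeR adjusted p = 7.41e-06) and was higher with 6OHA than with BEX. Adam10, a protease that sheds the TREM2 ectodomain, also rose in both, with 346 CPM in the 6OHA library, 366 ± 8.04 CPM with BEX (SD, n = 3) and 228 CPM in untreated cells. Prkcd and Pik3r1, which encode a protein kinase C and a regulatory subunit of PI3-kinase, rose in both comparisons as well. Malt1, of the CARD9-BCL10-MALT1 complex, fell in both. Card9 rose with BEX and was lower with 6OHA than with BEX (log2 fold change -0.36 ± 0.06, edgeR adjusted p = 0.00416). Plcg2, the phospholipase that SYK activates and a risk gene of Alzheimer's disease, had 229 CPM with 6OHA, 226 ± 7.66 CPM with BEX (SD, n = 3) and 255 CPM in untreated cells, and fell with BEX (edgeR adjusted p = 0.0329) while the 6OHA value of -0.15 on the log2 scale missed the threshold (edgeR adjusted p = 0.113). Inpp5d, which encodes the phosphatase SHIP1 that restrains this pathway, fell with BEX (log2 fold change -0.18 ± 0.043, edgeR adjusted p = 0.0145) and was higher with 6OHA than with BEX (0.16 ± 0.043, edgeR adjusted p = 0.0442). Ms4a6d, of the MS4A family linked to soluble TREM2 in humans, fell with BEX (log2 fold change -0.27 ± 0.048, edgeR adjusted p = 0.00185).

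Among the 6 genes of the TREM family, Trem2 was the one that fell with 6OHA, while 2 rose and 3 were not called. With BEX 1 rose and 5 were not called. The shares called were 50.0% and 16.7%, beside 14.8% and 13.6% among all tested genes. Trem3 (7.53 to 8.34 CPM) and Treml1 (1.80 to 2.69 CPM) were low, where a change of the size seen for Trem2 could go uncalled. Treml2, a neighbour of Trem2 in the TREM cluster, moved opposite to Trem2, with 53.9 CPM in the 6OHA library, 65.9 ± 0.911 CPM with BEX (SD, n = 3) and 24.7 CPM in untreated cells. Its log2 fold change over untreated was 1.12 ± 0.089 with 6OHA (edgeR adjusted p = 4.67e-06) and 1.41 ± 0.076 with BEX (edgeR adjusted p = 7.18e-08). Treml4 rose with 6OHA (log2 fold change 0.35 ± 0.098, edgeR adjusted p = 0.0304), and the other three family members were not called in any comparison.

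Axl (chromosome 7, 25756500 to 25788924, - strand) encodes a receptor tyrosine kinase of the TAM family that recognises dying cells through GAS6. It was the only one of the 10 called higher against untreated cells, with 391 CPM in the 6OHA library, 374, 368 and 377 CPM with BEX (373 ± 4.66 SD, n = 3) and 282 CPM in untreated cells. All 4 agonist libraries were above the untreated one, and the 6OHA library was above all BEX libraries. Axl rose by 0.47 ± 0.052 on the log2 scale with 6OHA (edgeR adjusted p = 7.56e-05) and by 0.41 ± 0.042 with BEX (edgeR adjusted p = 3.22e-05), and both calls held in every alternative tried. The 6OHA level over the BEX level was 0.07 ± 0.042 on the log2 scale (95% interval -0.02 to 0.16, edgeR adjusted p = 0.408). Of the 5 TAM receptor and ligand genes, Mertk, the sister receptor, rose with both agonists, with 77.7 CPM in the 6OHA library, 77.6 ± 1.06 CPM with BEX (SD, n = 3) and 41.9 CPM in untreated cells. Gas6, the ligand, was at 189 CPM with 6OHA, 205 ± 5.65 CPM with BEX (SD, n = 3) and 204 CPM in untreated cells and was not called, and Pros1, the other ligand, fell with BEX (edgeR adjusted p = 0.0173).

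Lilrb4a (chromosome 10, 51490898 to 51496613, + strand) encodes an inhibitory immunoglobulin-like receptor of myeloid cells. It had 1073 CPM with 6OHA, 863, 854 and 896 CPM with BEX (871 ± 22.3 SD, n = 3) and 1229 CPM in untreated cells. The 3 groups did not overlap, with BEX lowest and untreated highest. Lilrb4a fell by 0.50 ± 0.039 on the log2 scale with BEX (edgeR adjusted p = 1.58e-06) and by 0.20 ± 0.048 with 6OHA (edgeR adjusted p = 0.0157), and was higher with 6OHA than with BEX (0.30 ± 0.039, edgeR adjusted p = 0.000718). The difference between agonists therefore ran opposite to that of Trem2. The 6OHA call over untreated was lost without a filter on low counts (edgeR adjusted p = 0.0716) and on the deposited TPM (limma adjusted p = 0.127 and 0.136), and the call between agonists was lost on the TPM (limma adjusted p = 0.0566 and 0.0669).

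The assignment of reads to Lilrb4a is uncertain, because its neighbour Lilr4b (member 4B of the same subfamily) is a close copy and because 1846 exonic bases on the same strand are shared with the GENCODE M21 model Gm49339. Lilr4b had 528 CPM with 6OHA, 426, 423 and 442 CPM with BEX (431 ± 10.1 SD, n = 3) and 596 CPM in untreated cells, and was called in the same direction as Lilrb4a in each of the 3 comparisons. Of the 6 LILR and PIR receptor genes, 0 rose and 2 fell with 6OHA, and 0 rose and 4 fell with BEX. The shares called were 33.3% and 66.7%, beside 22.7% and 20.1% among all tested genes of at least 10 CPM. Pirb, an inhibitory paired receptor, fell with BEX (log2 fold change -0.22 ± 0.049, edgeR adjusted p = 0.00834), and Pira2, an activating one, fell with BEX (-0.26 ± 0.055, edgeR adjusted p = 0.00675) and was higher with 6OHA than with BEX (0.27 ± 0.055, edgeR adjusted p = 0.0134).

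Clec7a (chromosome 6, 129461591 to 129472785, - strand) encodes dectin-1, a receptor for beta-glucans that signals through SYK. It was the lowest of the 10, with 291 counts in the 6OHA library, 516, 456 and 574 counts with BEX and 456 counts in untreated cells. As CPM these were 8.43 with 6OHA, 15.2, 12.6 and 14.2 with BEX (14.0 ± 1.34 SD, n = 3) and 12.8 in untreated cells. The 6OHA library was the lowest of the 5, and the untreated value lay within the BEX range. Clec7a had the largest fall among the 10, of -0.60 ± 0.172 on the log2 scale over untreated (edgeR adjusted p = 0.0318) and of -0.73 ± 0.146 over BEX (edgeR adjusted p = 0.0094). With BEX over untreated it was not called (0.13 ± 0.126, edgeR adjusted p = 0.581). The call over untreated was lost with DESeq2 (adjusted p = 0.086), limma-voom (adjusted p = 0.0567), the deposited TPM (limma adjusted p = 0.128 and 0.142) and no filter (edgeR adjusted p = 0.111). The call over BEX was lost on the TPM (limma adjusted p = 0.091 and 0.106) and without a filter (edgeR adjusted p = 0.0777). Only 3 of 8 genes of the dectin-1 lectin group passed the filter on low counts, and Clec7a alone was called.

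Itgax (chromosome 7, 128129526 to 128150657, + strand) encodes the integrin alpha chain CD11c, a marker of plaque-associated microglia in mice. It had 186 CPM with 6OHA, 176, 160.4 and 174 CPM with BEX (170.1 ± 8.56 SD, n = 3) and 182 CPM in untreated cells. The 6OHA library was the highest of the 5, yet Itgax was not called in any comparison. Its log2 fold change was 0.04 (95% interval -0.11 to 0.19) for 6OHA over untreated, -0.09 (-0.22 to 0.03) for BEX over untreated and 0.13 (0.01 to 0.26) for 6OHA over BEX (edgeR adjusted p = 0.795, 0.33 and 0.215). Itgb2, the beta chain with which it pairs, was not called in either comparison with untreated cells, and of the 5 CD11 and CD18 integrin genes Itgam (CD11b) rose with BEX (log2 fold change 0.12 ± 0.033, edgeR adjusted p = 0.0373). That call held in 6 of 13 alternatives, whose adjusted p ran from 0.0136 to 0.113.

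Spp1 (chromosome 5, 104435111 to 104441053, + strand) encodes osteopontin, a secreted phosphoprotein of activated and phagocytic microglia. It had 5858 CPM with 6OHA, 5980.0, 5544 and 6251 CPM with BEX (5925 ± 357 SD, n = 3) and 7309 CPM in untreated cells. All 4 agonist libraries were below the untreated one, and the 6OHA value lay within the BEX range. Spp1 fell by 0.32 ± 0.059 on the log2 scale with 6OHA (edgeR adjusted p = 0.00341) and by 0.30 ± 0.048 with BEX (edgeR adjusted p = 0.000812), and the agonists differed by -0.02 (95% interval -0.12 to 0.09, edgeR adjusted p = 0.896). The call with 6OHA was lost with DESeq2 (adjusted p = 0.0591), without a filter (edgeR adjusted p = 0.0601) and on the deposited TPM (limma adjusted p = 0.134 and 0.161), and the call with BEX was lost on the TPM (limma adjusted p = 0.0949 and 0.118). A GENCODE M21 model on the same strand, Gm42793, shares 309 exonic bases with Spp1.

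The receptors of osteopontin moved in both directions. Itgb3, the beta chain of the vitronectin-type receptor, had 18.5 CPM with 6OHA, 12.9 ± 0.514 CPM with BEX (SD, n = 3) and 33.1 CPM in untreated cells. It fell with both agonists (log2 fold change -0.84 ± 0.109, edgeR adjusted p = 0.000265 with 6OHA, and -1.36 ± 0.088, edgeR adjusted p = 3.66e-07 with BEX) and was higher with 6OHA than with BEX. Itgav, its alpha partner, rose with both (0.40 ± 0.073, edgeR adjusted p = 0.00343 with 6OHA, and 0.26 ± 0.061, edgeR adjusted p = 0.0119 with BEX). Cd44 had 732 CPM with 6OHA, 606 ± 9.13 CPM with BEX (SD, n = 3) and 622 CPM in untreated cells. It rose with 6OHA over untreated (edgeR adjusted p = 0.00611) and over BEX (edgeR adjusted p = 0.00135).

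Cst7 (chromosome 2, 150570415 to 150578944, + strand) encodes cystatin F, an inhibitor of lysosomal cysteine proteases. It had 39.7 CPM with 6OHA, 40.3, 37.2 and 39.9 CPM with BEX (39.1 ± 1.69 SD, n = 3) and 38.9 CPM in untreated cells. The 6OHA and untreated values lay within the BEX range. The 95% intervals of its log2 fold change were -0.18 to 0.23 for 6OHA over untreated, -0.16 to 0.17 for BEX over untreated and -0.14 to 0.19 for 6OHA over BEX, and edgeR called none (adjusted p = 0.899, 0.976 and 0.917). Of 6 tested cystatin and cathepsin genes 0 rose and 2 fell with either agonist (33.3%). Among all tested genes of at least 10 CPM the share called was 22.7% with 6OHA and 20.1% with BEX. The 2 that fell were Cst3 (cystatin C) and Ctsc, the cathepsin that activates serine proteases. Cst3 had 364 CPM with 6OHA, 377 ± 7.24 CPM with BEX (SD, n = 3) and 420.2 CPM in untreated cells. Its log2 fold change was -0.21 ± 0.052 with 6OHA (edgeR adjusted p = 0.0178) and -0.16 ± 0.043 with BEX (edgeR adjusted p = 0.026). Each call held in 8 alternatives, of 12 with 6OHA and of 13 with BEX, and with offsets for GC content and length the values were 0.0034 (edgeR adjusted p = 0.982) and -0.03 (edgeR adjusted p = 0.678). Ctsc had 1236 CPM with 6OHA, 1211 ± 12.1 CPM with BEX (SD, n = 3) and 1394 CPM in untreated cells.

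Gpnmb (chromosome 6, 49036518 to 49058182, + strand) encodes a transmembrane glycoprotein of lysosome-rich, lipid-laden phagocytes. It had 6232 CPM with 6OHA, 6356, 6726.5 and 6439.9 CPM with BEX (6507 ± 194 SD, n = 3) and 6771 CPM in untreated cells. The 6OHA library was the lowest and the untreated library the highest, but edgeR called no difference: the log2 fold change was -0.12 ± 0.04 for 6OHA over untreated (adjusted p = 0.0671), -0.06 ± 0.033 for BEX over untreated (adjusted p = 0.297) and -0.06 ± 0.033 for 6OHA over BEX (adjusted p = 0.321). The first of these was called in 3 of 12 alternatives, among them the fit without BEX replicate 2 (edgeR adjusted p = 0.0112). Mitf, whose protein is known to drive Gpnmb in other cells, was at 38.2 CPM with 6OHA, 33.0 ± 0.932 CPM with BEX (SD, n = 3) and 35.4 CPM in untreated cells and was not called.

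Cd9 (chromosome 6, 125460266 to 125494760, - strand) encodes a tetraspanin that organises receptors in the plasma membrane and in exosomes. It had 254 CPM with 6OHA, 244, 251 and 253 CPM with BEX (249 ± 4.5 SD, n = 3) and 281 CPM in untreated cells. All 4 agonist libraries were below the untreated one, and the 6OHA library was just above the BEX range. Cd9 fell with BEX (log2 fold change -0.17 ± 0.045, edgeR adjusted p = 0.022), and its value of -0.15 ± 0.055 with 6OHA was not called (edgeR adjusted p = 0.0984; 0.0488 without BEX replicate 2). The BEX call was lost without BEX replicate 1 (edgeR adjusted p = 0.0873), with offsets for GC content and length (0.0878), without a filter (0.0723) and on the TPM (limma adjusted p = 0.113 in both forms). An antisense model, Gm26728, overlaps 218 exonic bases of Cd9 and had 0 to 5 counts per library. Of the 9 tetraspanin and partner genes, Cd151, which pairs with laminin-binding integrins, fell with both agonists, at 39.0 CPM with 6OHA, 36.7 ± 2.67 CPM with BEX (SD, n = 3) and 49.0 CPM in untreated cells, and Cd63, of lysosomes and exosomes, fell with BEX (edgeR adjusted p = 0.00788). The Cd151 call with 6OHA (log2 fold change -0.33 ± 0.102, edgeR adjusted p = 0.0482) held in 4 of 12 alternatives, with an adjusted p of up to 0.243, and that with BEX (edgeR adjusted p = 0.00402) in 11 of 13. The tetraspanin gene Cd53 rose with BEX (0.14 ± 0.036, edgeR adjusted p = 0.0245), and Igsf8, which encodes a partner of CD9, was lower with 6OHA than with BEX (-0.24 ± 0.045, edgeR adjusted p = 0.0094). Both of these calls held in 9 of 13 alternatives.

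**Figure D3:**
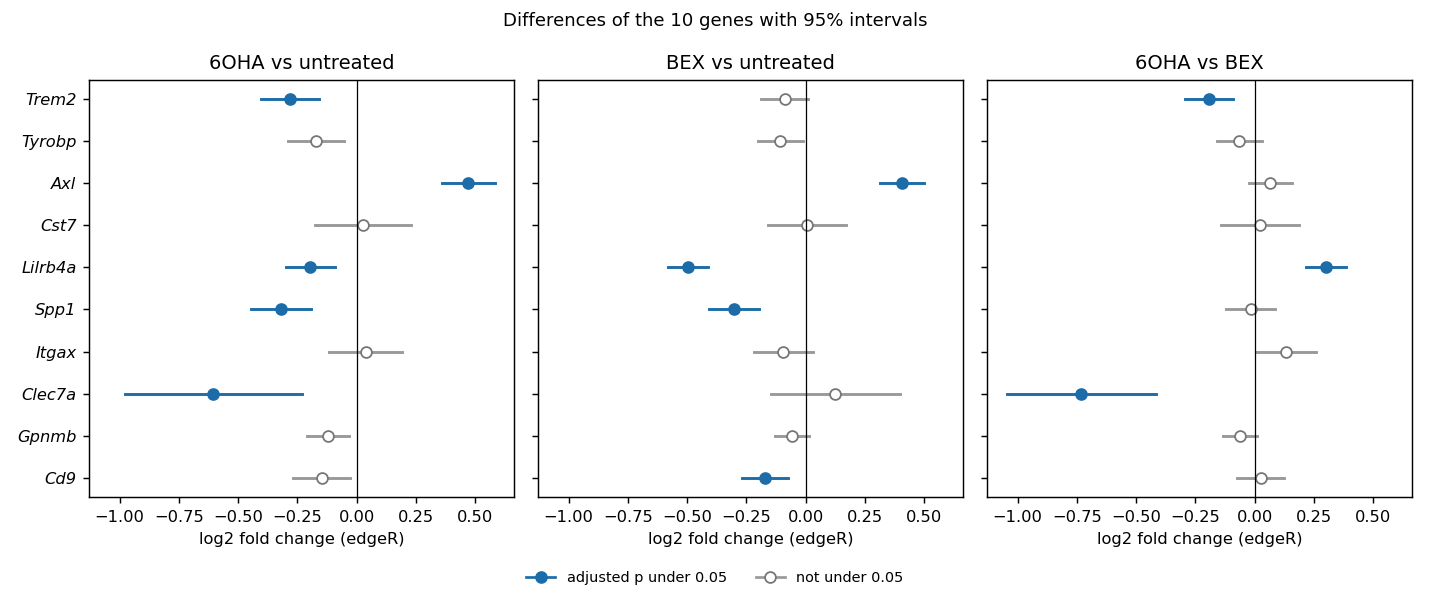
log2 fold changes (edgeR) of the 10 genes with 95% intervals for 6OHA over untreated, BEX over untreated and 6OHA over BEX; filled points are called at an adjusted p under 0.05 and open points are not. Axl lies to the right of 0 in both comparisons with untreated cells and Lilrb4a and Spp1 to the left, while Trem2 and Clec7a lie left of 0 over BEX and Lilrb4a right of it.

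Whether Trem2 and Tyrobp moved with the state genes was described by the distance between patterns over the 5 libraries (the Euclidean distance between log2 CPM centred per gene, among 13290 other tested genes averaging 20 counts or more). From Trem2, the member with the closest pattern was Tyrobp (distance 0.122, rank 529), then Gpnmb (0.133, rank 681) and Cd9 (0.191, rank 1930). Spp1 (rank 4321), Cst7 (rank 4405) and Itgax (rank 6614) were farther, and Lilrb4a (rank 10405), Clec7a (rank 10745) and Axl (rank 10951) were the farthest of the members. From Tyrobp, the closest members were Cd9 (0.0923, rank 455), Gpnmb (0.0951, rank 499) and Trem2 (rank 1052), and Clec7a (rank 11533) was the farthest. From Spp1, the closest member was Cd9 (0.184, rank 641) and the farthest Clec7a (0.67, rank 11390). The 5 genes nearest to Trem2 were Npepl1, Ezr, Scap, Dda1 and Usf1, at 0.015 to 0.0307. Those nearest to Tyrobp were Bcas3, Ifi30, Ube2v1, Nasp and Mrpl21, and those nearest to Spp1 were H2-Eb1, Msh6, Jazf1, Cd86 and Fam120aos. The distances weigh small and large changes by their size and come from 5 libraries that share 1 culture system, so they are a description and carry no test.

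Relative to Trem2 in the same library, Axl stood at 0.329 of the Trem2 TPM with 6OHA, 0.278, 0.257 and 0.269 with BEX and 0.189 in untreated cells. Lilrb4a stood at 2.40 times the Trem2 TPM with 6OHA, 1.79, 1.65 and 1.77 times with BEX and 2.31 times in untreated cells. Spp1 stood at 15.9 times with 6OHA, 14.6, 12.9 and 14.6 times with BEX and 16.3 times in untreated cells. These ratios differed gene by gene, with Axl higher per Trem2 in all 4 agonist libraries and Lilrb4a lower per Trem2 in the BEX libraries. Trem2 itself was lowest with 6OHA, and every other member but Clec7a was higher per Trem2 there than in any BEX library. Cst7 stood at 0.155 with 6OHA against 0.125 to 0.142 with BEX, and Itgax at 0.180 against 0.133 to 0.153. Gpnmb stood at 6.33 against 5.64 to 5.87, and Cd9 at 0.818 against 0.695 to 0.712. Clec7a stood at 0.0146 against 0.0184 to 0.0242.

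The wider disease-associated programme was also mixed. Of 7 genes of its TREM2-independent stage, 2 rose, 2 fell and 3 were not called with 6OHA, and 1 rose, 2 fell and 4 were not called with BEX. The shares called were 57.1% and 42.9%, beside 22.7% and 20.1% among all tested genes of at least 10 CPM. Ctsd, a lysosomal aspartic protease, rose with both, at 6138 CPM with 6OHA, 6245 ± 48.5 CPM with BEX (SD, n = 3) and 4865 CPM in untreated cells. Fth1 (ferritin heavy chain) and Lyz2 (lysozyme) fell with both. Apoe, which encodes an apolipoprotein that TREM2 binds, was at 696 CPM with 6OHA, 784 ± 43.1 CPM with BEX (SD, n = 3) and 777 CPM in untreated cells and was not called.

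Of 12 genes of the TREM2-dependent stage, 7 of them members, 2 rose, 3 fell and 7 were not called with 6OHA, and 2 rose, 4 fell and 6 were not called with BEX. The shares called were 41.7% and 50.0%, beside 22.7% and 20.1% among all tested genes of at least 10 CPM. Between 6OHA and BEX, 3 were higher, 3 were lower and 6 were not called, a share of 50.0% beside 10.1%. Ccl6, a chemokine, was the gene of this list with the largest rise, at 1526 CPM with 6OHA, 2176 ± 24.3 CPM with BEX (SD, n = 3) and 701 CPM in untreated cells. Lpl (lipoprotein lipase) fell with BEX (log2 fold change -0.37 ± 0.067, edgeR adjusted p = 0.0022), was not called with 6OHA (0.03 ± 0.081, edgeR adjusted p = 0.863) and was higher with 6OHA than with BEX (0.40 ± 0.067, edgeR adjusted p = 0.00389), the same direction between agonists as Lilrb4a. Timp2, a metalloproteinase inhibitor, fell with BEX and was higher with 6OHA than with BEX (0.17 ± 0.042, edgeR adjusted p = 0.0326).

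Of 20 further genes of the state, Spp1 and Gpnmb among them, 0 rose, 5 fell and 15 were not called with 6OHA, and 1 rose, 11 fell and 8 were not called with BEX. The shares called were 25.0% with 6OHA, beside 22.7% among genes of at least 10 CPM, and 60.0% with BEX, beside 20.1%. The median log2 fold changes of this list were -0.11 with 6OHA and -0.20 with BEX. Lgals3 (galectin-3, a ligand of TREM2 in mice) had 340.2 CPM with 6OHA, 363 ± 7.93 CPM with BEX (SD, n = 3) and 443 CPM in untreated cells, and fell with both agonists as Spp1 did. Ch25h, which makes the oxysterol 25-hydroxycholesterol, had the largest fall, at 84.0 CPM with 6OHA, 116 ± 1.74 CPM with BEX (SD, n = 3) and 217 CPM in untreated cells, and like Trem2 was lower with 6OHA than with BEX (log2 fold change -0.46 ± 0.054, edgeR adjusted p = 0.000418). Ank and Syngr1 fell with both agonists, and Cd68 and Cd52 fell with BEX. Of this list, Ch25h alone was called between the agonists.

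Many calls of these related genes, the markers of other cell types included, depended on the processing. Besides the members, the lists held 38 called genes for 6OHA over untreated, 58 for BEX over untreated and 21 for 6OHA over BEX, and 14, 26 and 4 of them in the same order held in every alternative. Of the calls described above, that of Lyz2 with 6OHA held in 7 of 12 alternatives, that of Inpp5d between the agonists in 7 of 13 and that of Lilr4b with 6OHA in 8 of 12. The calls of Ctsc, Malt1, Pik3r1, Itgav and Treml4 with 6OHA held in 9 of 12, and those of Plcg2 and Cd68 with BEX and of Timp2 between the agonists in 9 of 13.

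**Figure D4:**
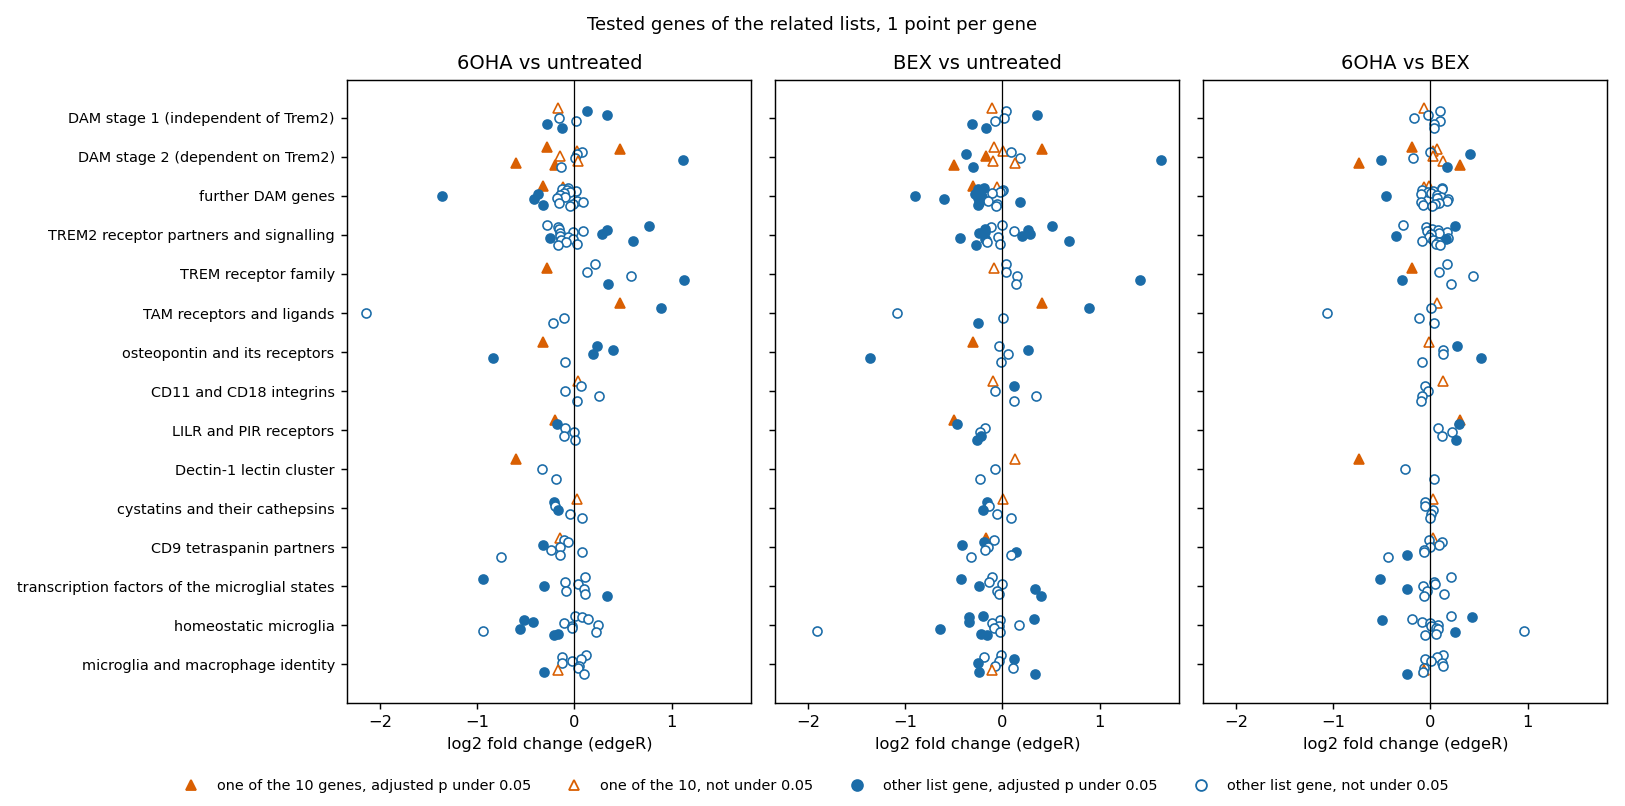
log2 fold changes (edgeR) of the tested genes in 15 related lists, 1 point per gene, for 6OHA over untreated, BEX over untreated and 6OHA over BEX; triangles are the 10 members, circles other genes, and filled symbols are called. Several lists hold called genes on both sides of 0, while the further genes of the disease-associated state lie mostly to the left of 0 in the BEX panel.

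Markers of other cell types summed to low levels, apart from those of oligodendrocytes. Astrocyte markers, relevant because the medium was conditioned by astrocyte-like cells, summed to 15.8 CPM with 6OHA, 17.7 to 19.8 CPM with BEX and 23.5 CPM in untreated cells, with Aqp4 at 0 in all 5 libraries and Gfap at 4 counts in the 6OHA library and 0 elsewhere. Most of each sum was Aldh1l1, at 12.3 CPM with 6OHA, 15.3 ± 0.545 CPM with BEX (SD, n = 3) and 16.4 CPM in untreated cells. Aldh1l1 was not called in any comparison. Slc1a2 fell with both agonists, at 3.04 CPM with 6OHA, 3.33 ± 0.676 CPM with BEX (SD, n = 3) and 7.08 CPM in untreated cells. Neuron markers summed to 9.85 CPM with 6OHA, 8.73 to 9.62 CPM with BEX and 13.5 CPM in untreated cells, with Rbfox3 at 0. Snap25 fell with BEX (log2 fold change -0.74 ± 0.188, edgeR adjusted p = 0.0218), at 3.77 CPM with 6OHA, 2.92 ± 0.215 CPM with BEX (SD, n = 3) and 4.89 CPM in untreated cells. Map2 fell with BEX as well (-0.52 ± 0.138, edgeR adjusted p = 0.0267), at 6.00 CPM with 6OHA, 6.02 ± 0.211 CPM with BEX (SD, n = 3) and 8.63 CPM in untreated cells, but its value on log2(TPM + 0.1) was 0.04 (limma adjusted p = 0.963). With 6OHA neither was called (edgeR adjusted p = 0.319 and 0.0662). Oligodendrocyte markers summed to 101 CPM with 6OHA, 100.5 to 104 CPM with BEX and 86.5 CPM in untreated cells, most of it Mbp, with Mog and Olig2 at 0. Mbp rose with both agonists, at 95.3 CPM with 6OHA, 93.6 ± 0.895 CPM with BEX (SD, n = 3) and 76.7 CPM in untreated cells (log2 fold change 0.31 ± 0.069, edgeR adjusted p = 0.00906 with 6OHA, and 0.29 ± 0.056, edgeR adjusted p = 0.00405 with BEX). Mag fell with 6OHA (-0.84 ± 0.218, edgeR adjusted p = 0.0193), at 5.36 CPM with 6OHA, 7.63 ± 1.09 CPM with BEX (SD, n = 3) and 9.61 CPM in untreated cells, and was not called with BEX (edgeR adjusted p = 0.21). The Mbp calls held in every alternative, those of Mag and Slc1a2 with 6OHA in 7 and 9 of 12, and those of Snap25, Map2 and Slc1a2 with BEX in 9, 8 and 11 of 13. Fibroblast and endothelial markers summed to 1.59 CPM with 6OHA, 1.1 to 2.16 CPM with BEX and 1.86 CPM in untreated cells, with Col1a1, Col1a2 and Cldn5 at 0. A count of 0 allows up to 3 counts per library, which is 0.074 to 0.0887 CPM (counting error only). The part of these markers in the changes of the 10 genes was not tested.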

How the data were processed

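Poly-A RNA from 5 MG5 libraries was sequenced from stranded TruSeq preparations, per the labels' protocols. The authors deposited these libraries as columns of a single mm10 gene table, in 3 units: counts, FPKM and TPM. The deposited read counts were whole numbers and entered every main test. The deposited TPM gave levels per length and alternative tests, and the deposited FPKM were not used. Tools listed in the submitters' processing notes are HISAT2 2.1.0, Bowtie2, StringTie 2.1.3b, SAMtools 1.9, bcl2fastq 2.20.0 and Trimmomatic 0.38. Their roles and the use of strand in counting are not given in the sources used here, so antisense and overlapping models may share reads with a gene. By gene identifier, 45679 of 45777 genes matched RefSeq GRCm38.p6, which gave positions.

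Genes were kept by filterByExpr (minimum count 10, minimum total 15). All 5 libraries entered 1 edgeR 4.0.16 quasi-likelihood fit (R 4.3.3, glmQLFit without the legacy method, TMM factors 0.994 to 1.00) with 3 groups and no covariate. The common dispersion was 0.00287, with 2 residual and 10.6 prior degrees of freedom. The tests were two-sided, with Benjamini-Hochberg adjustment at 0.05 over 15462 genes, and SEs and 95% intervals came from the same fit. The 3 BEX libraries differed by more than counting noise (chi-square per degree of freedom 4.82 to 6.31) and were counted as 3 samples. Intervals cover counting error and the spread between BEX libraries, and limits for counts of 0 cover counting error only.

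Alternatives were DESeq2 1.42.0, edgeR with RLE factors, limma-voom, limma-trend (limma 3.58.1) on log2(TPM + 1) and log2(TPM + 0.1), whose fold changes are on that scale, no filter, a mean of at least 20 counts, leaving out each BEX library and fitting the compared groups only. Added after seeing the data were offsets for GC content and gene length (14147 tested genes had both) and the older edgeR method. The genes, the 21 lists and the alternatives were chosen with earlier results of these data known. The rule for names took up to 4 called genes with the smallest adjusted p per list and comparison. From these the text describes a selection made with their values known, and a few other called genes of the lists. It also names 13 genes chosen by role and the 5 genes nearest in pattern to Trem2, Tyrobp and Spp1. The pipeline was also tested on simulated data with known differences. Of simulated 1.5-fold differences, 42.6% were called for 6OHA over untreated, 70.1% for BEX over untreated and 65.7% for 6OHA over BEX. A true difference of that size or less may therefore go uncalled. 1 gene of the related lists is not reported here and was left out of their counts.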

Additional observations from a re-analysis of the deposited data

How the results depend on the processing

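No paired analysis was possible because the groups share fewer than 2 replicate numbers. Over 380 alternative values of the log2 fold changes of the 10 genes, 336 kept their direction and side of the threshold, 29 lost a call, 8 gained one and 7 changed sign, all 7 in genes not called in that comparison. For 6OHA over untreated, 5 genes of the 10 were called, against 2 without a filter and 1 in each TPM fit, and 5 to 8 when a BEX library was left out, with 8 without BEX replicate 2. For BEX over untreated the 4 called became 2 in each TPM fit, and for 6OHA over BEX the 3 called became 1 without a filter and 0 in each TPM fit. Genes called for 6OHA over untreated numbered 2285, against 1134 without a filter, 785 and 869 on log2(TPM + 1) and log2(TPM + 0.1), and 1388 with GC and length offsets. For BEX over untreated they numbered 2101, against 1216 without a filter and 908 and 975 on TPM. For 6OHA over BEX they numbered 1010, against 190 without a filter and 85 and 144 on TPM, and 867 to 1660 when a BEX library was left out. The share of higher genes among those called on TPM was 62.2% and 62.4% for 6OHA over untreated (main 51.3%), 67.7% and 70.1% for BEX over untreated (main 55.6%) and 24.7% and 25.7% for 6OHA over BEX (main 36.7%). Signs changed for Tyrobp (BEX over untreated, 0.0176 with GC and length offsets), for Cst7 (BEX over untreated, -0.00983 to 0.0399 when a BEX library was left out; 6OHA over BEX, -0.0135 to 0.0403 when one was left out and -0.0176 with the offsets), for Spp1 (6OHA over BEX, -0.0621 to 0.0203 when one was left out) and for Cd9 (6OHA over BEX, -0.0221 with the offsets). The cause of these differences was not tested. A fit of the compared groups only is not possible for 6OHA over untreated, which have 1 library each. Clec7a, with 291 to 574 counts per library, had the widest intervals of the 10 genes, whose other members had at least 1348 counts in every library.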

Other observations

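Transcription factors tied to microglial states moved in both directions. Of 9 such genes, 1 rose, 2 fell and 6 were not called with 6OHA, and 2 rose, 2 fell and 5 were not called with BEX. The shares called were 33.3% and 44.4%, beside 22.7% and 20.1% among all tested genes of at least 10 CPM. Maf rose with both agonists. Irf8, a factor of myeloid cells, rose with BEX (log2 fold change 0.34 ± 0.055, edgeR adjusted p = 0.0012) and was lower with 6OHA than with BEX (-0.24 ± 0.055, edgeR adjusted p = 0.0225), at 322 CPM with 6OHA, 381 ± 20.3 CPM with BEX (SD, n = 3) and 301 CPM in untreated cells. Tfeb, a regulator of lysosomal genes, had 8.54 CPM with 6OHA, 12.2 ± 1.07 CPM with BEX (SD, n = 3) and 16.4 CPM in untreated cells, and fell with both, a call that held in 7 of 13 alternatives with BEX. Spi1, which encodes PU.1, had 190 CPM with 6OHA, 199 ± 3.7 CPM with BEX (SD, n = 3) and 235 CPM in untreated cells, and fell with both (log2 fold change -0.31 ± 0.058, edgeR adjusted p = 0.00351 with 6OHA, and -0.24 ± 0.047, edgeR adjusted p = 0.00379 with BEX). With offsets for GC content and length the Spi1 value with 6OHA was -0.07 (edgeR adjusted p = 0.518).

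Homeostatic genes, which disease-associated microglia lose, were followed in the same fit. Of 14 tested, 0 rose, 5 fell and 9 were not called with 6OHA, and 1 rose, 6 fell and 7 were not called with BEX. The shares called were 35.7% and 50.0%, beside 22.7% and 20.1% among all tested genes of at least 10 CPM. Siglech and Sall1 were at 0 in all 5 libraries. Tmem119, a marker of homeostatic microglia, was the gene that rose with BEX and was not called with 6OHA. It had 60.7 CPM with 6OHA, 69.1 ± 1.28 CPM with BEX (SD, n = 3) and 55.2 CPM in untreated cells. Selplg, which encodes a selectin ligand, fell with both agonists, at 171 CPM with 6OHA, 182 ± 4.86 CPM with BEX (SD, n = 3) and 231 CPM in untreated cells (log2 fold change -0.43 ± 0.061, edgeR adjusted p = 0.000555 with 6OHA, and -0.34 ± 0.049, edgeR adjusted p = 0.000361 with BEX). Olfml3, an olfactomedin-like secreted protein, fell with both as well, at 23.0 CPM with 6OHA, 21.7 ± 1.71 CPM with BEX (SD, n = 3) and 33.9 CPM in untreated cells (-0.56 ± 0.116, edgeR adjusted p = 0.00645 with 6OHA, and -0.64 ± 0.092, edgeR adjusted p = 0.000421 with BEX). Fcrls fell with BEX (edgeR adjusted p = 0.00223) and with 6OHA (edgeR adjusted p = 0.039), where the call held in 8 of 12 alternatives. Cx3cr1, the fractalkine receptor, was lowest with 6OHA, as Clec7a was, with 23.1 CPM with 6OHA, 32.7 ± 1.46 CPM with BEX (SD, n = 3) and 33.2 CPM in untreated cells, and was lower with 6OHA than with BEX (log2 fold change -0.50 ± 0.089, edgeR adjusted p = 0.00565). P2ry13, a purinergic receptor, fell with BEX and was higher with 6OHA than with BEX (0.43 ± 0.067, edgeR adjusted p = 0.00258), in the same direction as Lilrb4a and Lpl.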
